A study of Mus musculus with 16 samples.

Results

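The comparison is between somatic cells of fetal mouse testes without and with the gene Inhba at E13.5, an embryonic age in days, described across genes of every cell type in the sample. Its members are the E13.5 libraries of a series of 16: 4 wild type (WT) and 4 knockout (KO), of which 7 entered the main test. KO replicate 1 carries germ cell transcripts and was left out of that test by the rule that defines the comparison, so 3 KO libraries (KO 2, 3 and 4) were set against 4 WT libraries (WT 1 to 4), and values with KO 1 are given where it changes the sign or size of what is described.

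All animals were of a mixed C57/Bl6/129svJ strain and of a cross that the labels name Inhba x Oct4 GFP, in which germ cells carry a green reporter. Both genotypes therefore carry the reporter, and Inhba is the labelled difference; which stretch of Inhba is missing, and in which cells, is not given in the sources used here. Mesonephros was removed, paired gonads were dissociated, and live GFP-negative cells were sorted for RNA sequencing on total RNA. The series design states 3 to 4 animals for each age and genotype, so with 4 libraries in a group 2 of them could come from 1 animal, and p-values would then reflect partly technical spread.

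Inhba encodes the beta A chain, which pairs with itself to form activin A, with the beta B chain (Inhbb) to form activin AB, and with the alpha chain (Inha) to form inhibin A. Activins bind type 2 receptors (Acvr2a, Acvr2b), which recruit the type 1 receptor Acvr1b, and the signal passes through SMAD2 and SMAD3. In the fetal mouse testis, Inhba is known as a product of fetal Leydig cells that drives the division of Sertoli cells, the epithelial cells of the testis cords. Leydig cells lie between the cords with stromal cells, vessels and macrophages, so RNA of all these types was in the sample.

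Depth was similar in 6 of the 7 libraries of the main test. WT libraries held 17919182 to 22090708 counts, KO 2 held 16358894 and KO 4 17857673, while KO 3 held 6131592, so scarce transcripts were least precise there. KO 1 held 23215119 counts. Values below are CPM, counts scaled to a common library size, with sizes adjusted by the TMM method, and the test is edgeR's quasi-likelihood test on the counts with Benjamini-Hochberg adjustment. A gene is called at an adjusted p under 0.05, and a log2 fold change is KO over WT with its standard error (SE).

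Inhba transcripts fell in KO. Inhba (GRCm38 chromosome 13, 16011851 to 16031621, plus strand) stood at 45.7, 105, 77.7 and 66.8 CPM in WT 1 to 4 and at 8.36, 7.36 and 5.78 CPM in KO 2 to 4. The highest KO value lay far below the lowest WT value. The log2 fold change was -3.37 ± 0.28 (edgeR adjusted p = 2e-05). KO 1 had 4.13 CPM, and with it the log2 fold change was -3.54. Fetal Leydig markers also ran low in KO 1, at 796 CPM in sum against 1749 to 2997 in WT. Its lower Inhba value therefore cannot be set apart from its cell content. A two-sided exact permutation test of log2 CPM gave p = 0.0571 for 3 against 4 and p = 0.0286 for 4 against 4, the smallest that each design allows. Some reads remained in every KO library, 44 to 130 counts, and since counts are summed over the gene, they do not show which exons are covered.

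Inhba was the only gene called. Of 20406 genes tested, 1 was called lower (0.0049%) and 0 higher (0.0%). The smallest adjusted p after Inhba was 0.139, for Icam1. At an unadjusted p under 0.05, 1315 genes were higher in KO (6.44%) and 1147 lower (5.62%), and 51.2% of all genes had a log2 fold change above 0. All 3 KO libraries lay above all 4 WT libraries for 1382 genes (6.77%) and below them for 1180 (5.78%). Under upper quartile scaling the split at an unadjusted p under 0.05 was 972 higher and 1498 lower. With KO 1 included, 1 of 20076 genes was called lower (0.00498%), 2121 were higher (10.6%) and 857 lower (4.27%) at an unadjusted p under 0.05, and 52.1% were above 0. DESeq2 made more calls on the same counts: 168 with the 15 libraries of both ages (88 higher, 0.431%, and 80 lower, 0.392%) and 237 with the 7 E13.5 libraries alone (145 higher, 0.779%, and 92 lower, 0.494%). Of these, 113 genes were called by both DESeq2 fits, 62 higher and 51 lower, and each of the 113 had an unadjusted p under 0.05 in edgeR.

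The partners and receptors of the missing subunit did not separate the genotypes. Inhbb, the beta B subunit, stood at 101, 81.3, 99.0 and 95.6 CPM in WT and at 98.5, 108 and 134 in KO 2 to 4 (log2 fold change 0.27 ± 0.13, edgeR adjusted p = 0.409). Those groups overlapped, and in KO 1 Inhbb was at 24.8 CPM. Inha, the alpha subunit, ran from 50.04 to 68.2 CPM in WT and from 46.7 to 68.8 in KO 2 to 4, with a log2 fold change of -0.09 ± 0.23. Per kilobase of exon, Inhba stood at 11.6 CPM, Inhbb at 22.1 and Inha at 41.6 in WT, so Inhba was the lowest of these 3 subunits there.

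Type 2 receptor Acvr2a gave 72.7 to 87.0 CPM in WT and 74.6 to 81.1 in KO 2 to 4. Acvr2b stood at 11.4 to 13.8 CPM against 12.8 to 14.2, and the type 1 receptor Acvr1b at 47.7 to 55.9 against 54.9 to 57.9. All 3 receptor ranges overlapped between genotypes. Smad3 stood at 98.9 to 112 CPM in WT and 102 to 128 in KO. Of 21 receptor and SMAD genes listed, 20 passed the filter, 10 were above 0, the median log2 fold change was 0.00, and 0 had an unadjusted p under 0.05 in either direction.

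**Figure D1:**
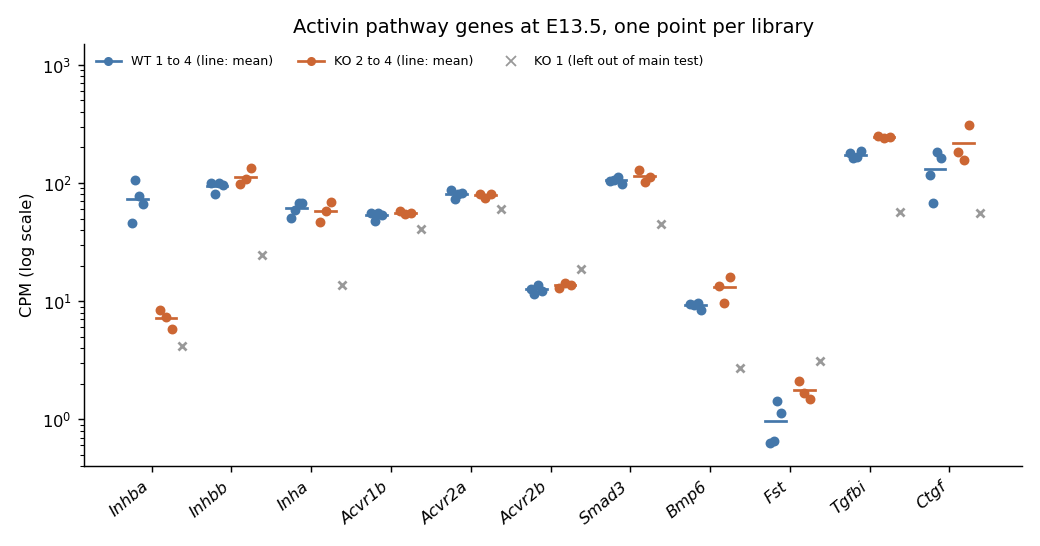
CPM (log axis) of 11 genes of the activin pathway in each E13.5 library; circles are WT 1 to 4 and KO 2 to 4 with a line at their mean, and the cross is KO 1. Inhba separates the genotypes, Tgfbi is higher in KO 2 to 4 than in every WT library by a smaller step, and the receptors overlap.

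Of the 28 ligands of the superfamily listed, the activin and inhibin chains included, 21 passed the filter, 12 were above 0 with a median of 0.02 (-0.06 with KO 1), and 3 were higher and 1 lower at an unadjusted p under 0.05, the lower one being Inhba. Over all genes, 6.44% were higher and 5.62% lower at that p. The 3 higher ligands were Inhbb, Bmp6 and Gdf9. Bmp6, a bone morphogenetic protein, stood at 9.54, 9.31, 9.69 and 8.35 CPM in WT and at 13.504, 9.70 and 15.98 in KO 2 to 4 (0.52 ± 0.16, edgeR adjusted p = 0.23), so KO 3 lay barely above the WT range. Gdf9, a ligand best known from oocytes, was scarce, with 0.17 to 0.566 CPM in WT and 0.531 to 1.54 in KO. Amh, the Sertoli hormone that removes the female ducts, spread widely in KO, at 274, 122 and 370 CPM against 170 to 239 in WT (0.32 ± 0.34).

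Antagonists and targets of activin also stayed short of a call. Fst encodes follistatin, which binds and blocks activin, and stood at 0.625, 0.653, 1.44 and 1.12 CPM in WT and at 2.12, 1.67 and 1.47 in KO 2 to 4 (0.87 ± 0.41, edgeR adjusted p = 0.407). The groups did not overlap, although KO 4 lay just above WT 3. Fst was the 1 of 15 tested antagonists with an unadjusted p under 0.05, where 6.44% of all genes were higher. Tgfbi, a secreted matrix protein that TGF-beta induces, stood at 179, 162, 164 and 186 CPM in WT and at 249, 240 and 243 in KO 2 to 4 (0.50 ± 0.13, edgeR adjusted p = 0.212). Every KO value of Tgfbi in that test lay above every WT value, and KO 1 held 56.3 CPM. Ctgf, another TGF-beta target, ran from 67.6 to 183 CPM in WT and from 157 to 309 in KO 2 to 4. In the list of 23 tested targets, 15 were above 0, the median was 0.10 (-0.08 with KO 1), and 2 were higher and 0 lower at an unadjusted p under 0.05. Over all genes the shares were 6.44% and 5.62%, so the counts of antagonists and targets at that p are no result about the lists.

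Transcripts of macrophages, the resident phagocytes of the fetal testis, were higher in KO 2 to 4 across the whole marker list. All 24 listed genes passed the filter and all 24 had a log2 fold change above 0, with a median of 0.66 against 0.01 over all genes tested. At an unadjusted p under 0.05, 11 of the 24 were higher and 0 lower, while the share over all genes was 6.44% higher. None was called by edgeR, and DESeq2 called 4 of them with 15 libraries and 6 with 7. Summed over the list, WT 1 to 4 gave 119, 105, 134 and 134 CPM and KO 2 to 4 gave 171, 200 and 236, so the groups did not overlap. Of the 24 genes, 12 had every KO library above every WT library, a separation found in 6.77% of all genes. KO 1 gave 32.3 CPM in sum.

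Laptm5, found in lysosome membranes of haematopoietic cells (chromosome 4, 130913125 to 130936141), stood at 5.06, 3.26, 4.51 and 3.98 CPM in WT and at 8.23, 8.86 and 13.2 in KO 2 to 4 (1.28 ± 0.27, edgeR adjusted p = 0.17). Coro1a, an actin-binding protein of leukocytes, stood at 2.39, 2.09, 2.45 and 1.74 CPM in WT and at 5.98, 3.51 and 6.90 in KO 2 to 4 (1.37 ± 0.32). Csf1r, the receptor for the growth factor on which macrophages depend, ran from 14.2 to 15.7 CPM in WT and stood at 21.8, 21.6 and 30.1 in KO 2 to 4 (0.75 ± 0.20). In each of these 3 genes every KO library of the main test lay above every WT library. Fcgr3, an antibody receptor, overlapped by a narrow margin, at 1.14 to 2.97 CPM against 2.83 to 4.78 (1.09 ± 0.30).

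The size of the macrophage median depended on which libraries were counted, while the median stayed above 0. With KO 1 the list median was 0.24 and 21 of 24 genes were above 0, and leaving out 1 of the 7 libraries in turn gave medians of 0.49 to 0.79. At E15.5 the same list had a median of 0.10. In sorted bulk samples, more cells of a type and more RNA per cell cannot be told apart.

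**Figure D2:**
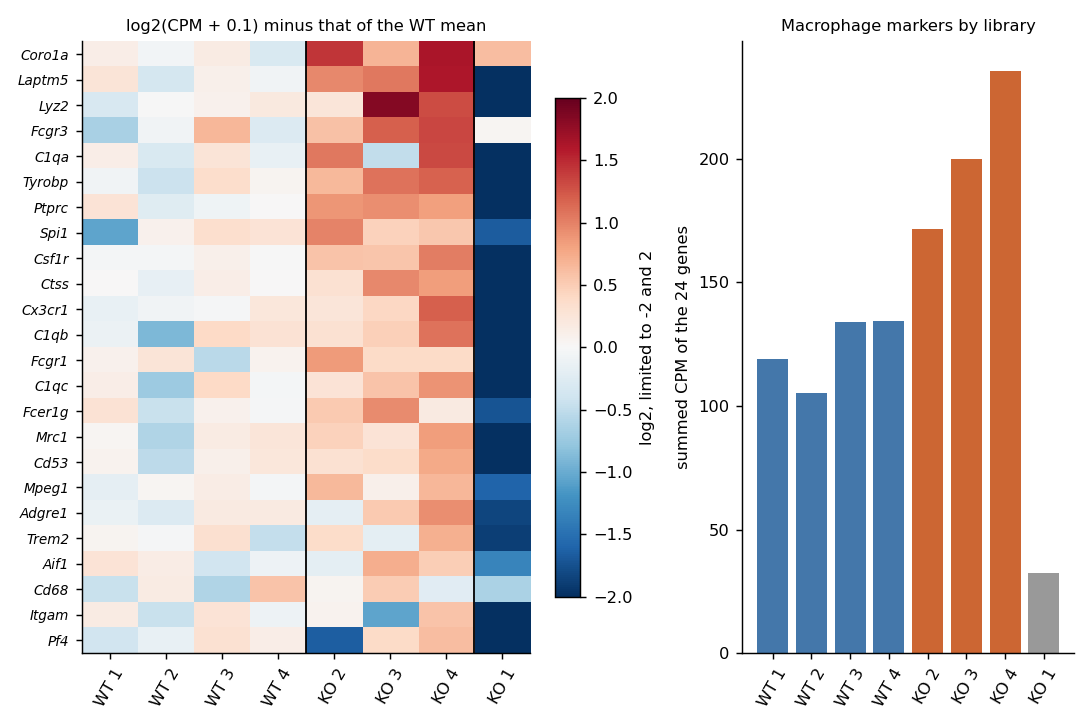
Left, each of the 24 macrophage marker genes (rows) in each E13.5 library (columns), as log2(CPM + 0.1) minus that of the WT mean, on a colour scale limited to -2 and 2; right, their summed CPM by library. KO 2, 3 and 4 (171, 200 and 236 CPM) stand above the 4 WT libraries, and KO 1 (32.3 CPM) stands below them.

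Of 20 listed genes of other leukocytes, 11 passed the filter and 8 were above 0, with a median of 1.19, or 0.73 without KO 2. At an unadjusted p under 0.05, 5 were higher and 0 lower, and 4 had every KO library above every WT library. Over all genes, 6.44% were higher and 5.62% lower at that p, and 6.77% had every KO library above. S100a9, a calcium-binding protein of neutrophils, stood at 3.29, 1.87, 0.816 and 1.91 CPM in WT and at 4.57, 20.6 and 32.1 in KO 2 to 4 (3.29 ± 0.86, edgeR adjusted p = 0.206). Its partner S100a8 stood at 0.696 to 2.41 CPM in WT and at 3.60, 7.36 and 14.98 in KO 2 to 4. Ngp, a neutrophil granule protein, stood at 0.227 to 0.28 CPM in WT and at 0.386, 3.34 and 5.43 in KO. In all 3 genes KO 3 and KO 4 were far above the WT libraries and KO 2 only just. Il7r, an interleukin receptor of lymphoid cells, overlapped, with 0.227 to 0.505 CPM in WT and 0.257 to 1.51 in KO.

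Erythroid RNA, which also enters with blood, was high in libraries of both genotypes. Its 14 detected markers summed to 13543 CPM in WT 4, 8686 in KO 3 and 10465 in KO 4, and to between 2199 and 3086 in the other 4 libraries of the test. The median log2 fold change of that list was -0.02, and 0 of its members had an unadjusted p under 0.05. The part of blood content in the neutrophil values was not tested.

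Icam1, an adhesion molecule that leukocytes bind on endothelium and other cells, had the smallest p after Inhba. Icam1 (chromosome 9, 21015985 to 21028817) stood at 4.26, 4.00, 4.61 and 4.32 CPM in WT and at 16.01, 7.02 and 11.3 in KO 2 to 4 (1.44 ± 0.24, edgeR adjusted p = 0.139). The WT libraries were tight and every KO library was higher, including KO 1 at 6.22 CPM. DESeq2 called Icam1 (adjusted p = 3.2e-05 with 15 libraries), and it passed in 6 of the 20 other settings tried. At E15.5 Icam1 had a log2 fold change of 0.20 ± 0.22, and the difference between ages was not called (edgeR adjusted p = 0.27).

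The cytokine and chemokine list had 19 of 24 genes tested. At an unadjusted p under 0.05, 5 were higher and 1 lower, against 6.44% and 5.62% of all genes. Of the 19, 16 were above 0, with a median of 0.44. That median was 0.26 without KO 2, 0.24 without WT 2 and 0.10 with KO 1. Summed over the list, the groups overlapped, at 412 to 476 CPM in WT and 403 to 538 in KO 2 to 4. Tnf, an inflammatory cytokine, stood at 0.795, 0.0435, 0.912 and 0.224 CPM in WT and at 4.18, 1.51 and 2.18 in KO 2 to 4 (2.46 ± 0.61, edgeR adjusted p = 0.201). Cxcl2, a neutrophil chemokine, stood at 2.56, 1.13, 3.07 and 0.561 CPM in WT and at 12.7, 8.20 and 6.61 in KO 2 to 4 (2.32 ± 0.66), a set without overlap. Its neighbour Cxcl1 stood at 0.566 to 1.01 CPM in WT and at 4.44, 1.00 and 2.24 in KO 2 to 4 (1.79 ± 0.48), where KO 3 fell inside the WT range. KO 1 was at 0.0475, 0.427 and 0.285 CPM for Tnf, Cxcl2 and Cxcl1.

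Promoters of Icam1, Cxcl1 and Cxcl2 are shown because these 3 genes had higher means in KO 2 to 4 than in WT and each holds the letters GGAANTTCC, a core of the sites that NF-kB proteins bind. The sequences are from RefSeq (GRCm38.p6), plus strand, 5′ to 3′, and end at the start site or, for Cxcl1 and Cxcl2, at the first annotated exon; capitals mark the match. Icam1 covers chr9:21015690-21015939, Cxcl1 chr5:90890995-90891240 and Cxcl2 chr5:90903649-90903870.
Icam1: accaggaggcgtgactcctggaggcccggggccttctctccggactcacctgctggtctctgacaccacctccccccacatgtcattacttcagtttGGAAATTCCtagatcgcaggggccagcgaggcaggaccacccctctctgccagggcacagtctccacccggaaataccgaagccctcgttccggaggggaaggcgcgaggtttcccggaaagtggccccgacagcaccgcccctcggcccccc
Cxcl1: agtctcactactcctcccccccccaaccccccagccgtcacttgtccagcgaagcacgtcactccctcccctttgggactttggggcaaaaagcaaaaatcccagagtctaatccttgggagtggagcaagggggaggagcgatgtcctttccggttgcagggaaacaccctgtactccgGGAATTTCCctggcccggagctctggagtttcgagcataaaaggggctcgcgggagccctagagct
Cxcl2: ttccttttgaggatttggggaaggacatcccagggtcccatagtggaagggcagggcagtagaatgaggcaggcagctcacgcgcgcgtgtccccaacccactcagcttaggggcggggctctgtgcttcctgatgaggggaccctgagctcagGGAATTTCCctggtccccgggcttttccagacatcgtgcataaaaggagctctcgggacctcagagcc

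Searched on both strands in the 250 bases before each start site, GGAANTTCC was present in 0.813% of 32851 RefSeq promoter windows. It was present in 4 of the 16 windows matched to the cytokine list (Ccl12, Cxcl1, Cxcl10 and Cxcl2) and in 1 of 22 windows of the macrophage list. The letters AGGAAGT, a core bound by ETS proteins such as the macrophage factor PU.1, were present in 8 of those 22 windows and in 7.69% of all windows. They were also in 10 of 20 windows of the other leukocyte list and in 3 of 16 of the cytokine list, so they are not particular to macrophage genes. These are counts of letters, and a match is not a bound site. The genes shown were chosen after their values were seen and for holding GGAANTTCC, so that they share it is no result. Tnf, also higher in KO 2 to 4, had no such match in its window. Whether NF-kB has a part in these values was not tested.

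Ccl17, a chemokine that draws T cells, was the 1 gene of that list lower at an unadjusted p under 0.05. It stood at 5.396, 5.57, 11.5 and 4.49 CPM in WT and at 1.54, 3.85 and 3.83 in KO 2 to 4 (-1.19 ± 0.36, edgeR adjusted p = 0.225). All KO libraries of the main test lay below all WT libraries, and KO 1 was lower still at 0.95 CPM. KO 1 ran low for many somatic lists, as for macrophages, at 32.3 CPM in sum against 105 to 134 in WT. Its low Ccl17 value therefore cannot be set apart from its cell content.

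Genes of phagocytosis and the lysosome lay mostly above 0. Of 29 listed genes, 28 were tested, 24 were above 0, and the median was 0.23. At an unadjusted p under 0.05, 13 were higher and 0 lower, against 6.44% and 5.62% of all genes. Mfge8, which bridges dying cells to phagocytes and is also made by Sertoli cells, stood at 144, 140, 167 and 156 CPM in WT and at 200, 210 and 208 in KO 2 to 4 (0.44 ± 0.11, edgeR adjusted p = 0.201). Psap, the precursor of lysosomal saposins, ran from 156 to 189 CPM in WT and from 201 to 233 in KO. Rac2, a GTPase of blood cells, stood at 3.12 to 4.22 CPM against 6.04 to 8.20. Those 3 genes did not overlap between the groups, while Elmo1, an engulfment adaptor that lies within 10 Mb of Inhba, did, at 64.0 to 93.9 CPM against 88.5 to 118. Of the 28 tested, 9 had every KO library above every WT library and 0 below, against 6.77% and 5.78% of all genes. With KO 1 the median of this list was 0.02.

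Sertoli cell markers were all detected and lay slightly above 0 in KO 2 to 4. All 32 listed genes were tested, and 24 were above 0 with a median of 0.20. At an unadjusted p under 0.05, 6 were higher and 0 lower, against 6.44% and 5.62% of all genes. Cldn11, the claudin of the Sertoli tight junction, stood at 14.9, 9.01, 13.3 and 14.7 CPM in WT and at 22.2, 26.1 and 21.4 in KO 2 to 4 (0.83 ± 0.26, edgeR adjusted p = 0.24). Gatm, an enzyme of creatine synthesis, stood at 412, 376, 413 and 371 CPM in WT and at 495, 546 and 521 in KO 2 to 4 (0.41 ± 0.14). For both genes the groups did not overlap. Of the 32 genes, 5 had every KO library above every WT library and 1 below, against 6.77% and 5.78% of all genes. Nr0b1, an orphan nuclear receptor, was at 14.0 to 22.8 CPM against 24.2 to 29.4, and Krt8, a keratin, at 11.6 to 14.4 against 12.9 to 25.4.

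In KO 1 the same 32 Sertoli genes summed to 1283 CPM, against 4155 to 5026 in WT and 5071 to 5712 in KO 2 to 4. The list median with KO 1 was -0.08, while leaving out 1 of the 7 libraries in turn gave medians of 0.13 to 0.27. Its sign at E13.5 thus changed when KO 1 was added and not when 1 library was left out. At E15.5, the other age, the list median was -0.25.

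Few fetal Leydig markers and steroid enzymes separated the genotypes. Of 20 tested Leydig genes, 16 were above 0 with a median of 0.18 (-0.04 with KO 1), 2 had every KO library above every WT library, and 1 was higher at an unadjusted p under 0.05. That gene was Prlr, the prolactin receptor, at 83.5, 106, 108 and 121 CPM in WT and 146, 129 and 106 in KO 2 to 4 (0.28 ± 0.12), with overlap. Among 20 tested enzymes of androgen and estrogen synthesis, 15 were above 0 with a median of 0.10 (0.03 with KO 1), 3 had every KO library above every WT library, and 1 was higher. Over all genes, 6.77% had every KO library above every WT library and 6.44% were higher at an unadjusted p under 0.05. Hsd17b10, a mitochondrial dehydrogenase, stood at 28.8 to 32.9 CPM in WT and 37.8 to 41.0 in KO 2 to 4 (0.35 ± 0.11, edgeR adjusted p = 0.254), without overlap. Hsd17b1, a steroid dehydrogenase, stood at 4.65 to 7.09 CPM in WT and 3.51 to 4.76 in KO.

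Lipid genes sat a little above 0 as lists. Of 28 cholesterol genes, 23 were above 0 with a median of 0.18, and 2 were higher and 0 lower at an unadjusted p under 0.05. These were Mvd, a mevalonate pathway decarboxylase (7.78 to 11.2 CPM in WT, 9.70 to 17.8 in KO 2 to 4), and Nsdhl, a sterol dehydrogenase (36.8 to 42.6 against 39.1 to 55.9), and both overlapped. Of 31 tested fatty acid genes, 26 were above 0 with a median of 0.16 (0.02 with KO 1), and 4 were higher. Acadl, which begins the oxidation of long-chain fatty acids, stood at 48.1, 48.5, 43.7 and 47.3 CPM in WT and at 69.6, 66.1 and 61.5 in KO 2 to 4 (0.49 ± 0.14, edgeR adjusted p = 0.218). Cpt1a, which admits fatty acids to mitochondria, ran from 83.8 to 96.5 CPM in WT and from 105 to 112 in KO. The groups of Acadl and of Cpt1a did not overlap, while those of Acsl1 and Srebf1, the other 2, did. Of the 31 fatty acid genes, 7 had every KO library above every WT library and 1 below, against 6.77% and 5.78% of all genes. For the counts at an unadjusted p under 0.05 in both lipid lists, the shares over all genes were 6.44% higher and 5.62% lower.

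Cell division genes, the readout usually tied to activin A in Sertoli cells, lay mostly a little below 0 in KO 2 to 4. They were read here in somatic cells of every type together. All 42 replication and mitosis genes were tested, and 14 were above 0 (33.3%, against 51.2% of all genes and 57.7% of protein-coding genes). The median was -0.05, or -0.13 to 0.02 with 1 of the 7 libraries left out. At an unadjusted p under 0.05, 1 was higher and 3 lower, against 6.44% and 5.62% of all genes. Mki67, a marker of cycling cells, stood at 1432, 1668, 1502 and 1536 CPM in WT and at 1278, 1370 and 1232 in KO 2 to 4 (-0.25 ± 0.08, edgeR adjusted p = 0.25). Prim1, a DNA primase subunit, ran from 57.3 to 64.4 CPM in WT and from 48.8 to 55.7 in KO. Both were lower in every KO library of the test than in every WT library. Of the 42 genes, 3 lay below in that way and 2 above, against 5.78% and 6.77% of all genes.

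Ccnb1, cyclin B1, overlapped at 58.4 to 67.7 CPM against 47.9 to 58.7. Cdc20, an activator of the anaphase-promoting complex, went the other way, from 27.6 to 29.9 CPM in WT to between 36.7 and 42.3 in KO 2 to 4 (0.42 ± 0.10). With KO 1, in which the 42 genes summed to 12801 CPM against 5858 to 6997 in the 7 other libraries, 36 of 42 were above 0 and the median was 0.16. Ccnd2, cyclin D2, stood at 292 to 319 CPM in WT and at 249 to 357 in KO 2 to 4 (-0.03 ± 0.11). Rbl1, a retinoblastoma relative, was the 1 of 13 tested cyclin and inhibitor genes with an unadjusted p under 0.05, at 48.6 to 52.0 CPM in WT and 40.3 to 44.6 in KO. Over all genes, 5.62% were lower at that p.

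**Figure D3:**
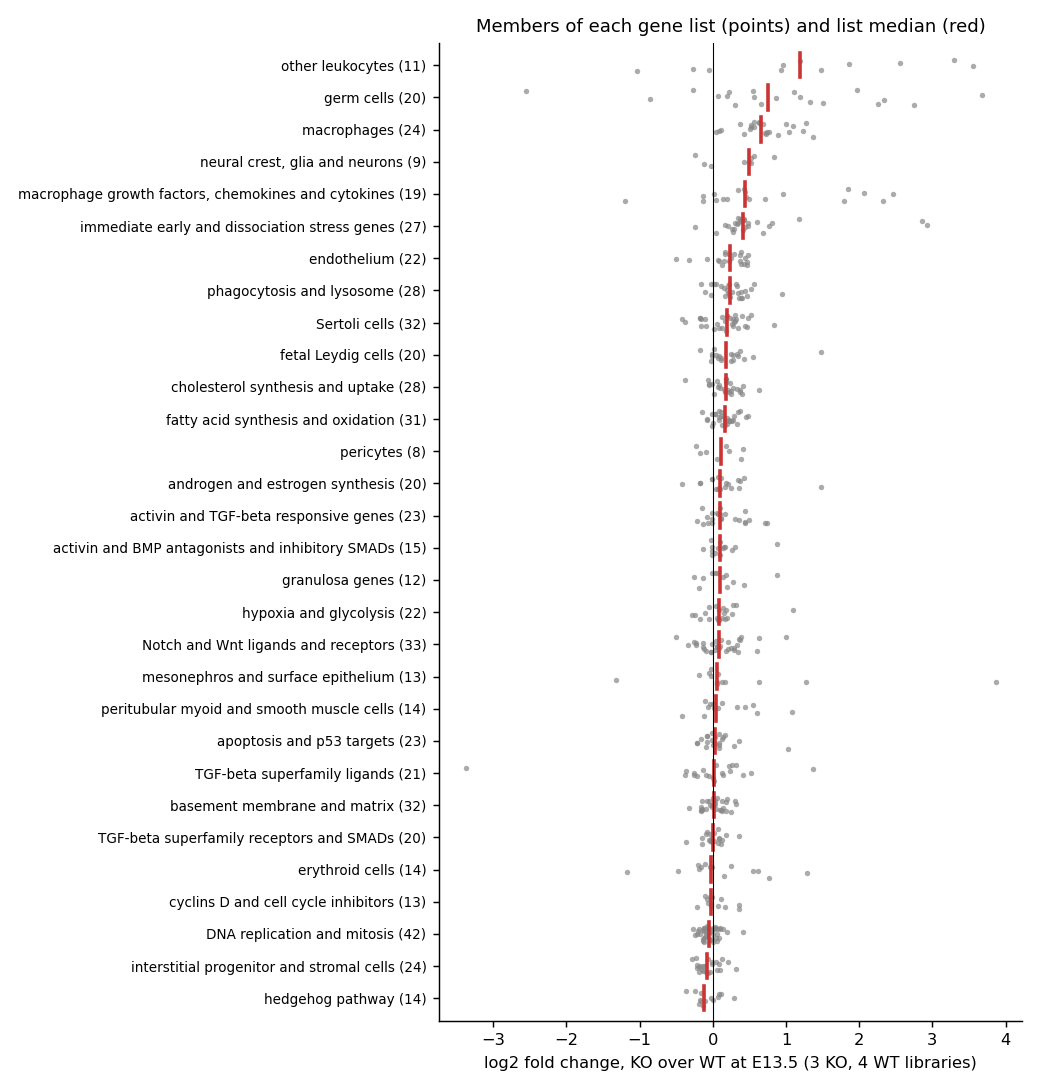
Log2 fold change at E13.5 (KO 2 to 4 over WT 1 to 4) of every tested member of 30 gene lists, as points, with the list median in red and the number tested in brackets. Other leukocytes (1.19), germ cells (0.76) and macrophages (0.66) have the highest medians, of which that of germ cells is 0.13 without KO 3 and that of other leukocytes 0.73 without KO 2, and the point near -3.4 among the ligands is Inhba.

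Of 24 tested stromal genes, 7 were above 0 with a median of -0.08. At an unadjusted p under 0.05, 0 were higher and 2 lower, against 6.44% and 5.62% of all genes. Wnt5a, a secreted Wnt ligand of the interstitium, stood at 445, 456, 477 and 465 CPM in WT and at 426, 392 and 365 in KO 2 to 4 (-0.22 ± 0.10, edgeR adjusted p = 0.37). Ptch1, the receptor of hedgehog ligands, stood at 616 to 657 CPM in WT and at 637, 470 and 563 in KO, so KO 2 was within the WT range. With KO 1 the stromal median was -0.36.

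Among 14 myoid genes, Actg2, a smooth muscle actin, was at 0.909 to 1.23 CPM in WT and 1.93 to 2.84 in KO 2 to 4 (1.08 ± 0.35), and Myocd, a cofactor of smooth muscle genes, at 28.4 to 36.2 against 17.4 to 29.8 (-0.42 ± 0.18). The median of that list was 0.04, and -0.24 with KO 1. Of 22 endothelial genes, 19 were above 0 with a median of 0.23, and with KO 1 it was 9 of 22 and -0.04. Without KO 4, WT 2 or WT 4 that median was 0.06, 0.14 or 0.11, and without KO 2 or WT 1 it was 0.40. In this list Esam, an adhesion molecule, was higher and Notch4, a vascular Notch receptor, lower at an unadjusted p under 0.05, and both overlapped. Over all genes, 6.44% were higher and 5.62% lower at that p. Mcam, a pericyte and endothelial adhesion molecule, ran from 40.4 to 61.8 CPM in WT and from 62.9 to 67.2 in KO.

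Of 9 tested genes of neural crest, glia and neurons, 6 were above 0 with a median of 0.49 (0.19 with KO 1). At an unadjusted p under 0.05, 4 were higher and 1 lower, where the shares over all genes were 6.44% and 5.62%. Erbb3, a neuregulin receptor of glia, stood at 59.1, 42.1, 62.4 and 62.7 CPM in WT and at 84.1, 80.4 and 85.0 in KO 2 to 4 (0.56 ± 0.16, edgeR adjusted p = 0.218). Sox10, the crest transcription factor, stood at 17.0, 13.3, 14.6 and 16.7 CPM in WT and at 19.6, 23.7 and 23.1 in KO (0.52 ± 0.15). Elavl4, a neuronal RNA-binding protein, was at 0.914 to 1.3 CPM against 1.89 to 2.12, and Ednrb, an endothelin receptor, at 6.35 to 9.14 against 10.1 to 11.9. All 4 were higher in each KO library of the test than in any WT library, as were 6.77% of all genes.

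Of 13 tested markers of mesonephros and surface epithelium, 8 were above 0 with a median of 0.05. At an unadjusted p under 0.05, 2 were higher and 0 lower, where the shares over all genes were 6.44% and 5.62%. Cdh16, a kidney tubule cadherin, stood at 0.0 to 0.087 CPM in WT and at 1.09, 0.669 and 0.177 in KO 2 to 4, and Pax2, a factor of the mesonephric ducts, at 0.28 to 0.738 against 0.502 to 1.8. Of 20 tested germ cell genes, 17 were above 0 with a median of 0.76, or 0.13 without KO 3. At an unadjusted p under 0.05, 4 were higher and 0 lower, against those same shares over all genes. The germ cell genes summed to 22.5 to 31.8 CPM in WT, 21.7 in KO 2, 64.6 in KO 3, 33.0 in KO 4 and 5038 in KO 1. Dazl, a germ cell RNA-binding protein, was at 5.52 CPM in KO 3, against 0.772 and 2.42 in KO 2 and 4, and its like Ddx4 at 7.86 CPM, against 2.31 and 4.84. The part of such cells in the results was not tested.

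Signalling lists for hedgehog, Notch, Wnt and matrix gave medians between -0.12 and 0.09, and between -0.31 and -0.18 with KO 1. Hes1, a Notch target, stood at 45.7, 45.1, 47.9 and 68.5 CPM in WT and at 168, 64.4 and 76.6 in KO 2 to 4 (1.00 ± 0.30, edgeR adjusted p = 0.227), and KO 2 was the highest library. Wif1, a Wnt inhibitor, was at 2.83 to 5.11 CPM in WT and 5.72 to 7.53 in KO. Of 32 matrix genes, 2 were higher and 0 lower at an unadjusted p under 0.05: Lama4, a laminin chain of vessels (168 to 219 CPM against 245 to 256), and Col18a1, a basement membrane collagen (417 to 606 against 589 to 771). Lama4 did not overlap, and Col18a1 did. Over all genes, 6.44% were higher and 5.62% lower at that p, so the matrix count is no result about the list.

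Of 27 immediate early and dissociation genes, 26 were above 0 with a median of 0.41, and that median was 0.09 with KO 1, 0.21 without WT 2, 0.23 without WT 1 or KO 4, 0.62 without KO 3 and 0.92 without WT 4. Hspa1b, a heat shock protein, stood at 10.5, 9.88, 7.72 and 45.4 CPM in WT and at 320, 23.2 and 48.7 in KO 2 to 4, and its near-identical copy Hspa1a at 6.30, 7.27, 4.70 and 47.6 against 315, 8.53 and 45.0. KO 2 was the high library and WT 4 overlapped with KO 4; reads can be split between these copies. Hsp90aa1, another chaperone, ran from 242 to 399 CPM in WT and from 332 to 489 in KO.

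Glycolysis and apoptosis lists had medians of 0.09 and 0.03. Gpi1 and Pkm, both glycolytic enzymes, were at 67.0 to 82.6 against 88.0 to 97.1 CPM and at 81.5 to 102 against 109 to 122. Pmaip1, a p53 target that promotes cell death, was at 2.31 to 6.504 CPM against 6.52 to 9.20, and Apaf1, part of the apoptosome, at 60.5 to 69.5 against 56.4 to 58.8. The groups of these 4 genes did not overlap, for Pmaip1 by the narrowest of margins. Of 22 glycolysis genes, 2 had every KO library above every WT library and 1 below, and of 23 apoptosis genes 1 and 1. Over all genes the shares were 6.77% and 5.78%, so these counts are no result about the lists.

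Outside the lists, a rule named the 12 genes per direction with the smallest p among those with mean CPM of at least 2 and no overlap, and with a symbol other than a Gm number, a Rik clone name or a -ps pseudogene name. Because the rule asks for separate groups, that separation is no result. Lrig1, a brake on receptor tyrosine kinases, stood at 25.6, 23.5, 22.9 and 21.3 CPM in WT and at 43.7, 41.0 and 30.9 in KO 2 to 4 (0.72 ± 0.13, edgeR adjusted p = 0.156). Tox, a nuclear HMG-box protein, stood at 20.7, 16.3, 17.9 and 13.7 CPM in WT and at 38.7, 32.4 and 22.3 in KO (0.86 ± 0.19). KO 1 went opposite ways for the pair, with 54.3 CPM of Lrig1 and 5.13 of Tox.

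Aldh2, a mitochondrial aldehyde dehydrogenase, ran from 92.6 to 109 CPM in WT and from 128 to 141 in KO 2 to 4 (0.43 ± 0.08). Tkt, transketolase of the pentose phosphate pathway, ran from 141 to 160 against 185 to 194, Pdia6, a disulfide isomerase, from 173 to 198 against 226 to 243, and Cct3, a chaperonin subunit, from 102 to 106 against 127 to 141. These steps are small, 0.33 to 0.43 on the log2 scale, with edgeR adjusted p between 0.156 and 0.178. Eif3f, a translation initiation factor, Zfand2a, a stress-induced proteasome partner, and Mepce, a capping enzyme of 7SK RNA, had log2 fold changes of 0.37, 0.54 and 0.44.

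Mapk8ip1, a scaffold of JNK signalling, stood at 25.1, 23.7, 25.9 and 25.7 CPM in WT and at 34.1, 32.1 and 36.4 in KO 2 to 4 (0.45 ± 0.08, edgeR adjusted p = 0.156). At E15.5 the gene was called higher, with 0.52 ± 0.08 (edgeR adjusted p = 0.0018). KO 1 had 11.9 CPM, below the WT range.

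The gene with the smallest p among those lower in KO, after Inhba, was Cttnbp2, which encodes a cortactin-binding protein of the actin cytoskeleton (chromosome 6, 18366478 to 18514843). It stood at 69.0, 61.4, 69.0 and 100 CPM in WT and at 38.3, 36.0 and 28.4 in KO 2 to 4 (-1.13 ± 0.21, edgeR adjusted p = 0.156). KO 1 at 24.2 was the lowest of all 8. That rank is no result, because KO 1 ran low for many somatic lists, as for stromal genes, at 2132 CPM in sum against 6628 to 7274 in WT. DESeq2 called Cttnbp2 (adjusted p = 0.00046 with 15 libraries). Gm43843, annotated inside Cttnbp2 (18429659 to 18431245) on the same strand, followed it, at 4.26 to 6.45 CPM in WT and 1.47 to 1.99 in KO (-1.59 ± 0.30). Its reads and those of the surrounding gene cannot be told apart.

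Mir17hg, the host transcript of the miR-17 to miR-92 cluster of growth-promoting microRNAs (chromosome 14, 115042879 to 115046727), stood at 18.1, 17.1, 17.5 and 19.5 CPM in WT and at 9.32, 10.9 and 10.3 in KO 2 to 4 (-0.84 ± 0.16, edgeR adjusted p = 0.156). KO 1 held 42.1 CPM, and with it the log2 fold change was 0.03. The cluster encodes 6 hairpins, and the hairpin genes themselves had 0 counts in all 8 libraries, so mature microRNAs were not measured here. The main mature arm of each is shown because the host transcript yields them together; sequences are from RefSeq (GRCm38.p6), 5′ to 3′, with the seed (bases 2 to 8) in capitals, ordered by seed.
mmu-miR-17-5p: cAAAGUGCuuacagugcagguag
mmu-miR-20a-5p: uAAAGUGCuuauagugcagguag
mmu-miR-18a-5p: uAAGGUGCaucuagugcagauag
mmu-miR-19a-3p: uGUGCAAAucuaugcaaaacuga
mmu-miR-19b-3p: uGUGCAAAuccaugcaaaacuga
mmu-miR-92a-3p: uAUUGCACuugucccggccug
The 6 sequences hold 4 distinct seeds, with miR-17 and miR-20a sharing 1 and miR-19a and miR-19b another.

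Unc13c, a synaptic vesicle priming factor, stood at 18.3, 26.3, 25.5 and 16.3 CPM in WT and at 13.4, 9.53 and 11.4 in KO 2 to 4 (-0.90 ± 0.20, edgeR adjusted p = 0.179). Cenpi, a centromere protein, ran from 32.8 to 34.6 CPM in WT and from 24.2 to 28.3 in KO (-0.41 ± 0.09), and it was called lower at E15.5 (-0.34 ± 0.08, edgeR adjusted p = 0.028). BC055324 was also called at E15.5 (-0.34 ± 0.08) and stood at 46.7 to 48.8 CPM against 33.3 to 38.1 at E13.5. For Cenpi and BC055324, KO 1 held 61.2 and 122 CPM, above every other E13.5 library.

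Snapc3, a factor for small nuclear RNA genes, had a log2 fold change of -0.42, Mysm1, a histone deubiquitinase, -0.35, Zcchc7, an RNA surveillance factor, -0.36, and Sec61a2, a translocon subunit, -0.40. Gcfc2 gave -0.45 and Slc22a21, a carnitine transporter, -0.67. Mysm1 ran from 120 to 124 CPM in WT and from 94.8 to 96.6 in KO 2 to 4. All 24 genes that the rule named were called by DESeq2 with 15 libraries and 23 of them with 7. The rule chose them by a small edgeR p on the same counts, so these DESeq2 calls are no separate result. With KO 1 included, 21 of the 24 kept their sign.

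Hist1h4a, a histone H4 copy on the chromosome of Inhba (chromosome 13, 23760692 to 23761230), stood at 5.68, 6.75, 4.94 and 4.54 CPM in WT and at 2.51, 2.17 and 2.77 in KO 2 to 4 (-1.12 ± 0.25, edgeR adjusted p = 0.179). Histone copies of this cluster can share reads. Since the strain is mixed, genes whose start lies within 10 Mb of Inhba were counted on their own. Of 132 tested, Inhba left out, 14 were higher (10.6%, against 6.44% of all genes) and 9 lower (6.82%, against 5.62%) at an unadjusted p under 0.05, and the median was -0.05. Of these, 110 were protein-coding, a class in which 7.90% of genes were higher and 3.54% lower. None was called by edgeR, and 2 were called higher and 2 lower by DESeq2 with 15 libraries, where the shares over all genes were 0.431% and 0.392%. Hist1 genes made up 4 of the higher and 4 of the lower, and on chromosome 13 outside the window 48 of 559 were higher and 28 lower.

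Medians also differed between gene classes. Protein-coding genes had a median of 0.04, with 1187 higher (7.90%) and 532 lower (3.54%) at an unadjusted p under 0.05 among 15018, and 57.7% were above 0. Nearly all tested members of the cell type and pathway lists belong to this class. The shares over all genes given beside those lists therefore understate the share of higher genes in their own class and overstate that of lower genes. Among 1198 TEC loci, a GENCODE class still awaiting experimental evidence and often lying inside introns, 202 were above 0, the median was -0.41, and 4 were higher and 252 lower. Medians were also below 0 for sense intronic genes (-0.47 over 169), snoRNAs (-0.49 over 155), antisense genes (-0.32 over 842) and lincRNAs (-0.23 over 649), and processed pseudogenes stood at 0.01.

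TEC loci took 0.454%, 0.585%, 0.430% and 0.419% of counts in WT 1 to 4 and 0.324%, 0.368% and 0.323% in KO 2 to 4, so the groups did not overlap; KO 1 had 0.388%. Mir17hg and Gm43843 are non-coding loci that were lower in the same libraries, and the part of this shift in their values was not tested. In a fit on 15007 protein-coding genes alone, added after the data were seen, Inhba was again the only gene called (0.00666%). There 897 genes were higher (5.98%) and 802 lower (5.34%) at an unadjusted p under 0.05, 50.2% were above 0, and the macrophage median was 0.62.

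**Figure D4:**
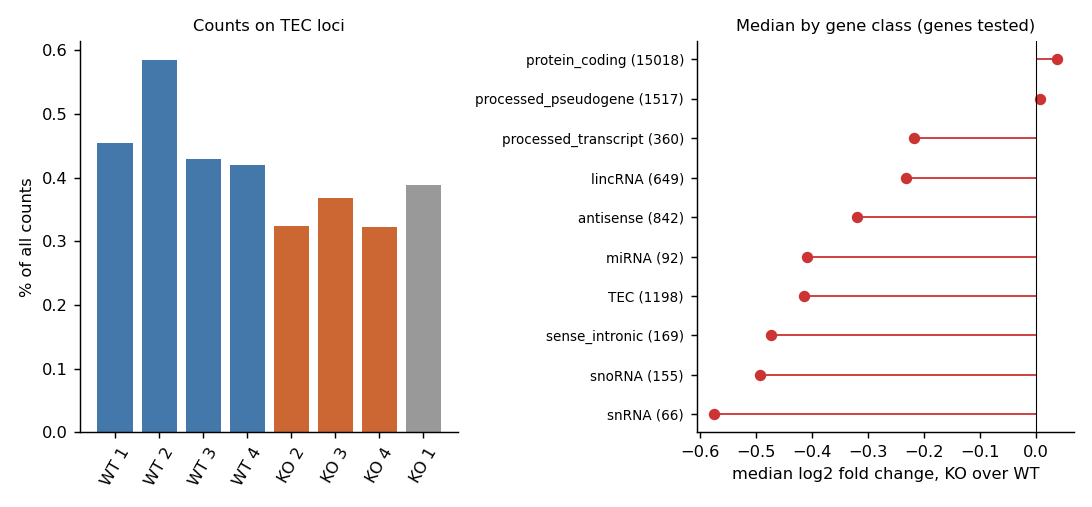
Left, share of all counts on TEC loci in each E13.5 library; right, median log2 fold change (KO 2 to 4 over WT) of each GENCODE gene class, with the number tested in brackets. The 3 KO bars (0.323% to 0.368%) lie below the 4 WT bars (0.419% to 0.585%), and protein-coding genes and processed pseudogenes are the classes shown with medians at or above 0.

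Whether KO acted differently at the other age was tested as a difference of effects on the 15 libraries. It was called for 18 of 20406 genes (0.0882%), for 4 with KO 1 included, and for 4 (without KO 2) to 13 (without WT 1) when 1 library was left out; the counts were 6 without KO 3, KO 4 or WT 4, 9 without WT 3 and 11 without WT 2. For Cttnbp2 the effects had opposite signs: -1.13 ± 0.21 at E13.5 and 0.96 ± 0.19 at E15.5, where WT stood at 41.6 to 63.3 CPM and KO at 75.3 to 130. The difference was 2.10 (edgeR adjusted p = 0.0086). Gm43843 inside it differed by 2.30 (edgeR adjusted p = 0.028). Cttnbp2 lay below WT in all 3 KO libraries at E13.5 and above it in all 4 at E15.5.

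Ccl17 and Erbb3 had the same sign at both ages and a larger effect at E15.5. For Ccl17 the log2 fold change was -5.21 ± 0.32 at E15.5, from 65.3 to 97.3 CPM in WT to between 1.25 and 2.81 in KO, and the difference was -4.01 (edgeR adjusted p = 0.0022). KO levels at E13.5 were 1.54 to 3.85 CPM, while WT was 6.74 ± 3.22 CPM (SD, n = 4) at E13.5 and 76.4 ± 14.3 (SD, n = 4) at E15.5. For Erbb3 the difference was 1.36 (edgeR adjusted p = 0.028), with WT at 56.6 ± 9.78 CPM at E13.5 and 12.5 ± 1.70 at E15.5. Gjb2, a connexin, was alike, with 0.51 ± 0.14 at E13.5, a difference of 1.25, and the same adjusted p.

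Other genes of the 18 gave little at E13.5. Serpina5, a protease inhibitor, had -0.17 ± 0.30 at E13.5 and a difference of -2.70 (edgeR adjusted p = 0.013). AF529169 stood at 2.18 to 3.08 CPM in WT and 2.18 to 3.68 in KO 2 to 4, with a difference of -3.05 (edgeR adjusted p = 0.00023), Ccnd2 a difference of -0.93 and Gja1, a connexin of Sertoli and Leydig cells, 0.15 ± 0.12 and a difference of -1.05. The remaining genes were Slc38a5, Slc9a2, Lama3, Socs2, Pdgfa, Sel1l3, Miox, Rnf19b and Npbwr1.

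**Figure D5:**
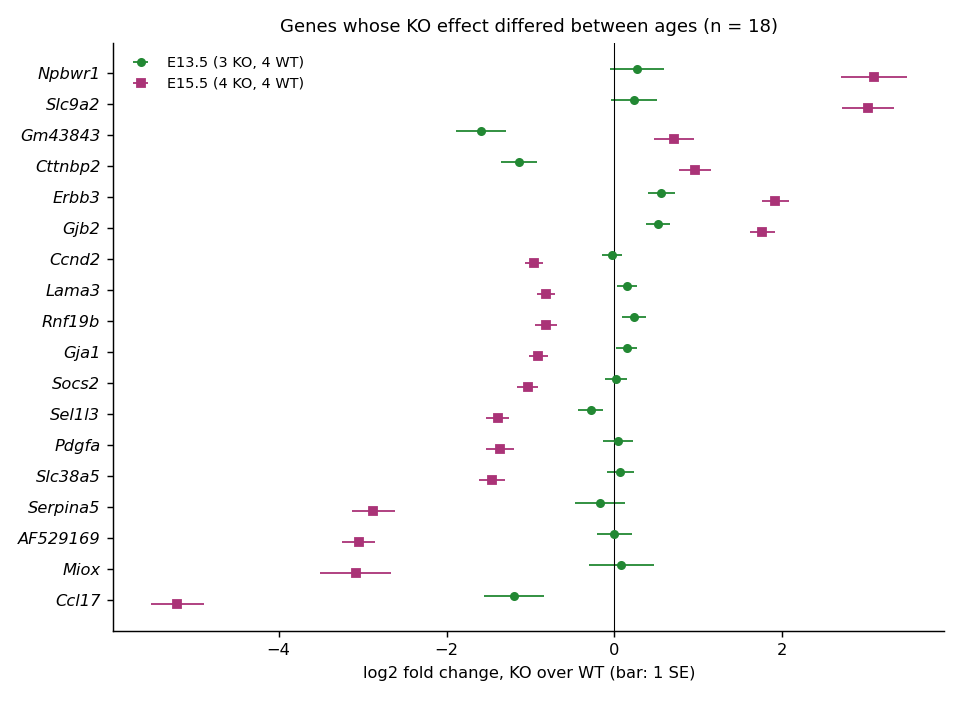
Log2 fold change of KO over WT (points, bars 1 SE) at E13.5 (green circles, 3 KO and 4 WT libraries) and E15.5 (purple squares, 4 and 4) for the 18 genes whose effects differed between ages. Cttnbp2 and Gm43843 lie on opposite sides of 0 at the ages, and most of the others lie near 0 at E13.5.

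The genes Hprt, Tbx22 and Hsd17b1, which were called at E15.5, had smaller values at E13.5 with no call of the difference. Hprt, the purine salvage enzyme, stood at 41.5, 31.5, 35.1 and 38.5 CPM in WT and at 49.7, 67.4 and 52.9 in KO 2 to 4 (0.62 ± 0.15, edgeR adjusted p = 0.198), with KO 1 at 81.5, so every KO library lay above every WT library. Tbx22, a T-box factor, was at 0.914 to 1.42 CPM in WT and 2.51 to 3.22 in KO 2 to 4 (1.35 ± 0.30, adjusted p = 0.179 by edgeR), and the difference of 2.30 had an adjusted p of 0.069. Hsd17b1 gave -0.42 ± 0.32 and a difference of -2.15, with the same adjusted p of 0.069.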

How the data were processed

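Total RNA of sorted GFP-negative testis cells was sequenced as 16 libraries. The authors deposited whole-number counts per gene for each library in 1 table. Per the submitters' processing notes, FastQC 0.11.5, Picard 2.9.0, MultiQC 1.0, STAR 2.5.2b and featureCounts of Subread 1.5.2 were used with GRCm38; the deposited table's name says that counting was non-stranded, so overlapping and antisense genes cannot be told apart. Of 47729 genes, 47310 matched the annotation.

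Computed here from the counts were filterByExpr, TMM scaling and edgeR 4.0.16 quasi-likelihood tests (R 4.3.3, limma 3.58.1) in a design of 4 groups on 15 libraries, with Benjamini-Hochberg adjustment over 20406 genes at 0.05. KO E13.5 replicate 1 was left out; its log2 CPM correlated at 0.911 with its group's mean, against 0.987 to 0.995 for other libraries. DESeq2 1.42.0, voom, other scalings and filters, and leaving out each library were alternatives. The scripts were tested on simulated data. Named genes were Inhba, called genes, the 12 per direction with the smallest p, a mean of at least 2 CPM and no overlap (without Gm-number, Rik, -ps and unnamed genes), up to 4 per list, members of the superfamily lists, and Hprt, Ccl17, Erbb3, Tbx22, Serpina5 and Hsd17b1 for the age difference; other genes of that difference, and a few others, were chosen after their values were seen. All members and lists were chosen with earlier results of these data known. P-values measure only the spread between these samples.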

Additional observations from a re-analysis of the deposited data

Results flagged for a closer look

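In 17 of 76 groups of 4 libraries, 1 library lay far from the other 3 (Dixon's test at 95%). Of these, 16 concern KO replicate 1 at E13.5. That count cannot be set against chance, because this library was already known to carry germ cell transcripts. Also, the single genes flagged in it were named for a small p and separate groups in a fit without it. Such a choice favours genes with close values in the 3 other KO libraries. In KO replicate 1 the summed markers of Sertoli cells came to 1283 CPM, of fetal Leydig cells to 796, of peritubular myoid and smooth muscle cells to 557, of mesonephros and surface epithelium to 553, of other leukocytes to 114 and of germ cells to 5038. Its levels of Aldh2 (66.4 CPM), Pdia6 (127) and Tkt (119) were below those of the 3 other KO libraries. Its levels of BC055324 (122 CPM), Cct3 (453), Cenpi (61.2), Gcfc2 (31.0), Mir17hg (42.1), Mysm1 (158) and Zcchc7 (117) were above them. The remaining case is WT replicate 4, whose erythroid markers summed to 13543 CPM.

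The KO effect differed between ages by edgeR's test of the difference for 9 genes described above. Its log2 change from E13.5 to E15.5 was -4.01 for Ccl17, -3.05 for AF529169, -2.70 for Serpina5, -1.05 for Gja1 and -0.93 for Ccnd2. It was 2.30 for Gm43843, 2.10 for Cttnbp2, 1.36 for Erbb3 and 1.25 for Gjb2.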

How the results depend on the processing

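Inhba was called lower in all 20 other settings. The count of called genes was 7 with no filter on low counts (3 higher), 168 (88 higher) and 237 (145 higher) by DESeq2 with 15 and 7 libraries, and 2 (1 higher) by voom with quality weights on 15 or 16 libraries. Leaving out 1 library gave 1 to 2 called and 0 to 1 higher. At an unadjusted p under 0.05, 2121 genes were higher with 16 libraries and 706 with the 8 of E13.5, where 449 were lower; with 1 library left out the count of lower genes was 757 (without WT 2) to 1240. Near Inhba, 15 genes passed that p with 8 libraries. The difference between ages was called for 29 genes with no filter, 4 with 16 libraries, and 4 to 13 with 1 E13.5 library left out.

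Of 2063 values of 104 genes, 34 changed sign. With KO 1 added to 15 and to 7 libraries, log2 fold changes became 0.0266 and 0.0174 for Mir17hg, 0.0373 and 0.0292 for Cenpi, 0.286 and 0.278 for BC055324, -0.0473 and -0.0550 for Inhbb, -0.0646 and -0.0753 for Amh, -0.0219 and -0.0288 for Acvr1b, -0.12 and -0.128 for Smad3, 0.214 and 0.206 for Prim1, 0.732 and 0.725 for Ccnb1, -0.16 and -0.168 for Gja1, 0.393 and 0.386 for AF529169, and -0.00159 with 8 libraries for Col18a1. AF529169 was 0.00188 with 7 libraries. Leaving out 1 library gave -0.203 to 0.142 for AF529169, -0.246 to 0.0475 for Inha, -0.0490 to 0.644 for Amh, -0.0764 to 0.00339 for Acvr2a, -0.347 to 0.154 for Serpina5 and -0.19 to 0.0795 for Ccnd2. The causes were not tested. Of 600 list medians, 104 moved, 46 of them with KO 1 included. KO 3, at 6131592 counts, limits scarce transcripts. No paired analysis was possible because the replicate numbers follow accession order and the leading numbers in the titles of the 8 E13.5 libraries all differ. At E15.5, which enters the age difference, 1 KO and 1 WT title share a leading number and 2 KO titles share another; what these numbers mean is not stated, and no block was fitted on them.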
